A study of Glycine max with 23 samples.

Results

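The miR395, miR399 and miR2111 families of soybean (Glycine max) were followed through 23 small RNA libraries. Every table entry named gma-MIR395, gma-MIR399 or gma-MIR2111 with a letter was taken, whichever arm it came from. This gave 27 hairpins among 3933 entries, and entries with an identical mature sequence were merged, which left 8 of 2839 distinct sequences. All plants were Williams 82, field-station material from Beijing with no treatment recorded, and no tissue had a replicate. The 6 leaf libraries were 3 of new leaf (from germination, the trefoil stage and flower bud differentiation) and 3 of older leaf (old leaf of the trefoil stage and of bud differentiation, and senescent leaf). Flowers were taken 5 times, as the flower bud, the bud before flowering, the first florescence, florescence on another date and the flower 5 days after flowering. The 3 pod libraries were of weeks 1, 2 and 3, and the 3 seed libraries of weeks 6, 8 and 10. There were 2 stem and 2 cotyledon libraries, from germination and from the trefoil stage, 1 of root from germination and 1 of the leaf bud from bud differentiation. Nothing was done to the supply of sulfate or phosphate, so the libraries describe plants by organ and age only.

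These families are known from other plants as part of nutrient signalling. miR395 is made under sulfate shortage and cleaves mRNAs of ATP sulfurylases, the first enzymes of sulfate assimilation, and of the sulfate transporter SULTR2;1. miR399 is made under phosphate shortage and moves in the phloem from shoot to root, where it lowers PHO2, a ubiquitin-conjugating enzyme that restrains phosphate uptake. miR2111 also responds to phosphate, and in Lotus japonicus it travels from leaves to roots and targets TOO MUCH LOVE, an F-box protein that limits nodulation. Targets were not measured here.

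The mature sequences are shown because they decide which hairpins can be told apart. All 8 are 21 nt long, are read 5′ to 3′ as the deposited table gives them (T for U), and have the seed, bases 2 to 8, in capitals.
miR395a-c: cTGAAGTGtttgggggaactc
miR395d-g: tGAAGTGTttgggggaacttt
miR395h: aTGAAGTGtttgggagaactc
miR395i-m: aTGAAGTGtttgggggaactc
miR399a/b/c/h: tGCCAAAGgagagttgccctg
miR399d-g: tGCCAAAGgagatttgcccag
miR2111b/c/e/f: tAATCTGCatcctgaggttta
miR2111a/d: gTCCTTGGgatgcagattacg
Each name lists the hairpins annotated with the sequence, and reads of a shared sequence cannot be assigned to 1 of them. Other hairpins may hold it too. The 24 nt entry M0134-5p, which overlaps miR2111a, begins with all 21 bases of miR2111b/c/e/f. miR395a-c, miR395h and miR395i-m share the seed TGAAGTG. Counted from 1 at the 5′ end, miR395a-c and miR395i-m differ by C1A, miR395a-c and miR395h by C1A and G15A, and miR395h and miR395i-m by A15G. The annotated miR395d-g sequence starts 1 base further in, so its seed is GAAGTGT. Both miR399 sequences have the seed GCCAAAG and differ by G13T and T20A, outside the seed. The miR2111a/d entry is the opposite arm to miR2111b/c/e/f, with the seed TCCTTGG against AATCTGC.

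Most of the hairpins lie in clusters, at the coordinates of the deposited table, whose genome build is not given in the sources used here. The 13 miR395 hairpins fall in 3 groups: 5 on chromosome 1 (4792375 to 4818690), 3 on chromosome 2 (1723449 to 1750680) and 5 on chromosome 8 (40780633 to 40840312). The chromosome 8 group holds miR395c and all of miR395d to miR395g. Of the 8 miR399 hairpins, miR399d and miR399e stand 9.2 kb apart end to end on chromosome 5 and miR399f and miR399g 8.1 kb on chromosome 8, so all copies of the miR399d-g sequence come in pairs. The 4 copies of miR399a/b/c/h are single, on chromosomes 10, 16, 20 and 9. miR2111b and miR2111c span 28.5 kb on chromosome 18, miR2111e and miR2111f 24.6 kb on chromosome 7, miR2111a lies on chromosome 1, and miR2111d has no position in the table.

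Values are tags per 5000000 sequenced tags, abbreviated TP5M. Libraries held from 3.625 to 6.743 (in units of 1e6) tags, and 3 reads, taken as the limit that a count of 0 allows, were worth 2.22 to 4.14 TP5M. The listed sequences together took 2.043% of the tags in root and from 4.606% to 17.493% elsewhere. Intervals given for single libraries cover counting error only. Levels are per library as sequenced, and in whole organs fewer cells of a type and less RNA per cell cannot be told apart.

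Of the 8 sequences, 5 reached a mean of 5 TP5M and could be tested. miR395h had 0 reads in all 23 libraries. miR395i-m had 12 reads in all, with at most 4.81 TP5M, in the old trefoil leaf. miR2111a/d had 43 reads, with at most 7.59 TP5M, in the bud before flowering. By family, miR395 was highest in the flower bud (4344 TP5M summed over its sequences), miR399 in the old trefoil leaf (1124 TP5M) and miR2111 in the flower 5 days after flowering (84.7 TP5M). The range differed in kind: the highest library stood 33.1 times above the family's median library for miR395, 4.85 times for miR399 and 2.43 times for miR2111.

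**Figure D1:**
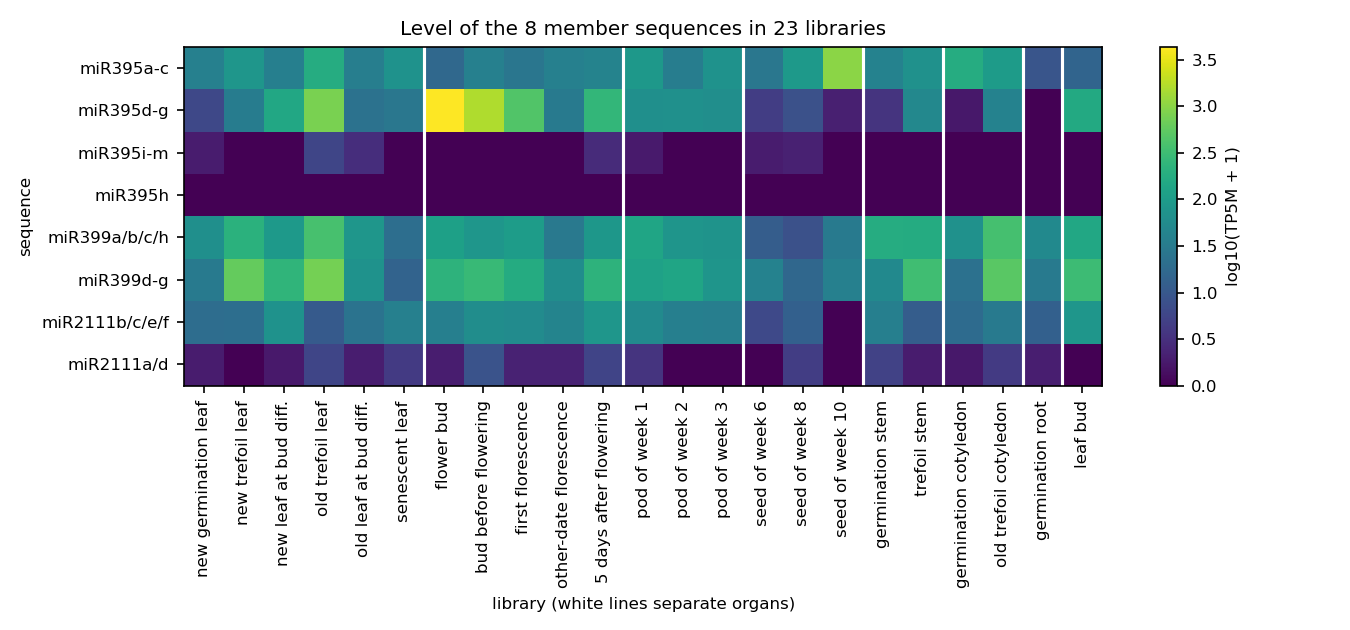
Level of the 8 sequences (rows) in the 23 libraries (columns), coloured by log10(TP5M + 1), with white lines between organs. The brightest cells are miR395d-g in the flower bud (4328 TP5M) and the bud before flowering (1581 TP5M) and miR395a-c in the seed of week 10 (1007 TP5M), while miR395h is at 0 throughout.

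Differences between organs were tested with limma on log2(TP5M + 5) over all 595 sequences that averaged 5 TP5M or more, with Benjamini-Hochberg adjustment. The libraries of an organ are different stages, so the p-values set organs against the spread between stages. Among leaf, flower, pod and seed together, 2 of the 5 tested sequences differed, miR2111b/c/e/f (adjusted p = 0.00353) and miR395d-g (adjusted p = 0.0139), against 39.5% of all sequences tested. The other 3 did not pass, with adjusted p = 0.0502 for miR399a/b/c/h, 0.184 for miR395a-c and 0.301 for miR399d-g. By edgeR on the reads with TMM scaling the 2 called were miR395a-c (adjusted p = 0.00259) and miR395d-g, and miR2111b/c/e/f had adjusted p = 0.148. All calls rest on matching table columns to libraries by the number in each title. Matched by a second number that the titles hold in brackets, none of the 5 was called in this test.

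miR395d-g, the sequence of 4 hairpins on chromosome 8, was the most abundant of the 8 and was concentrated in young flowers. It stood at 4328 TP5M in the flower bud, 1581 in the bud before flowering, 451 at first florescence, 29.7 at florescence on the other date and 257 at 5 days after flowering. In leaf it ran from 5.23 TP5M (new leaf at germination) through a median of 29.9 to 805 (old trefoil leaf). The 2 organs overlapped, since 4 of the 5 flower libraries were above 5 of the 6 leaf libraries but the old trefoil leaf was above 3 flower libraries. Flower bud exceeded the leaf bud (163 TP5M), the shoot bud taken at bud differentiation, 26.6-fold (95% interval 22.2 to 32.2).

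The same sequence was close to constant in pods and scarce in seeds. Pods held 63.3, 65.6 and 61.5 TP5M in weeks 1, 2 and 3. Seeds held 3.60, 7.11 and 1.12 TP5M in weeks 6, 8 and 10, of which the week 10 value is a single read. Every pod was thus above every seed, as for 50.1% of all sequences tested (either organ higher). In limma neither seed against pod (−2.99, adjusted p = 0.195) nor seed against leaf (−2.78, adjusted p = 0.158) was called. Germinating tissue was low too, with 2.54 TP5M in stem, 0.74 in cotyledon and 0 reads in root, where 3 reads would be 3.04 TP5M.

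In limma, miR395d-g was higher in flower than in leaf by 3.05 ± 1.13 (log2 difference ± SE; means 1329 ± 1780 TP5M, SD, n = 5, and 174 ± 314, n = 6) without passing the threshold (adjusted p = 0.054). None of the 5 tested sequences was called in flower against leaf, where 24.9% of all sequences were, and none by edgeR; at an unadjusted p under 0.05 limma gave 2, this one and miR2111b/c/e/f, of 228 in all. Without the old trefoil leaf the miR395d-g difference was called (3.81, adjusted p = 0.0176), as it was without florescence on the other date (4.01, 0.0114) and without new leaf at bud differentiation (3.33, 0.0387). Pod against flower was −2.84 (adjusted p = 0.359); no member was called there by limma or edgeR, against 2.02% of all sequences by limma, and none of the 5 had an unadjusted p under 0.05 (81 of all did).

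**Figure D2:**
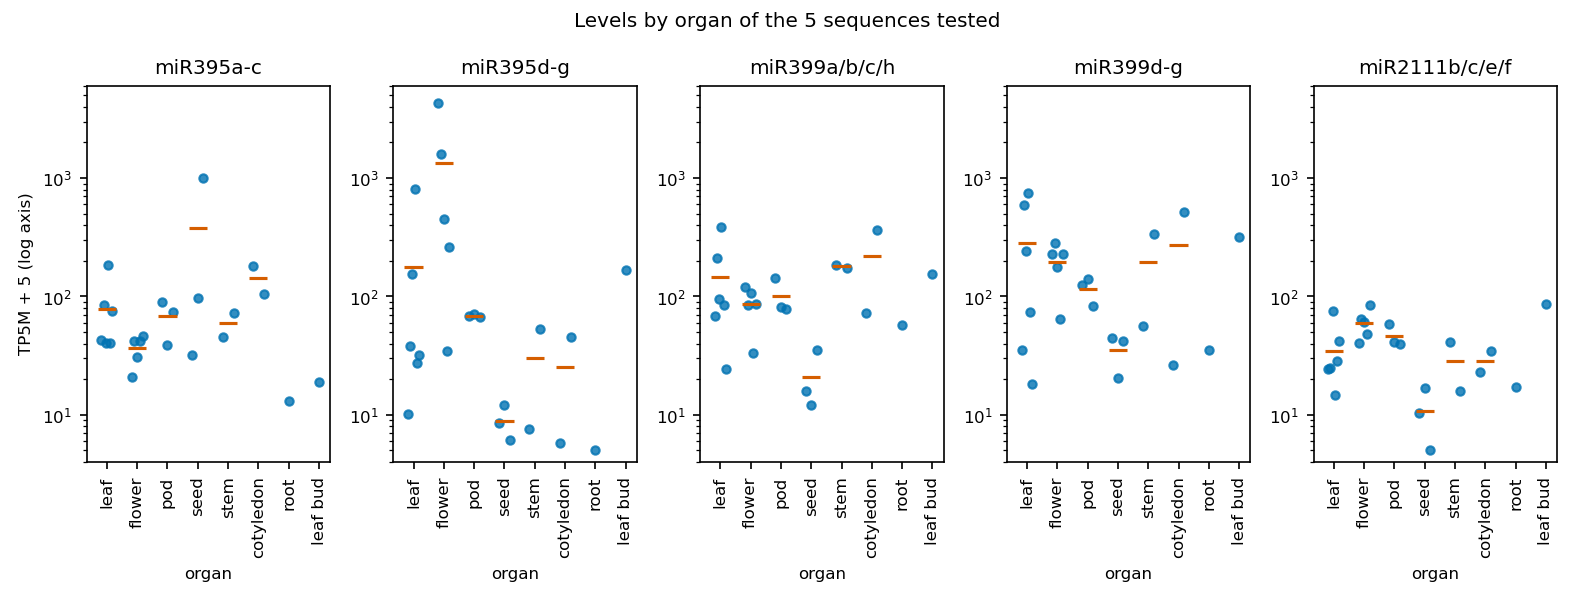
Levels of the 5 tested sequences by organ, as TP5M + 5 on a log axis, 1 point per library and an orange line at the mean of organs with more than 1 library. miR395d-g reaches 4328 TP5M in flower and stays at or below 7.11 TP5M in seed, whereas miR395a-c has 1007 TP5M in 1 seed library.

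The 5p arms of these hairpins, opposite to the main 3p product, carry different sequences and so separate copies that the main arm does not. They are unnamed entries, M3160-5p and M3157-5p, linked by the overlap of their hairpins with miR395g and with miR395d, miR395e and miR395f, and they were picked after their values were seen. Their sequences are shown with the differing bases in capitals, A12G and A21G from M3160-5p to M3157-5p.
M3160-5p: agttcctctgaAcacttcacA
M3157-5p: agttcctctgaGcacttcacG
M3160-5p, from miR395g, stood at 227, 165, 48.7, 3.71 and 19.3 TP5M in the 5 flower stages in their order of listing above. In leaf it was 13.2 TP5M in new leaf at bud differentiation and at most 2.40 in the other 5 libraries. The flower stages followed the order of miR395d-g, and the old trefoil leaf, below only 2 flower libraries in miR395d-g, was not high.

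M3157-5p was high in 1 leaf library alone. It reached 57.7 TP5M in the old trefoil leaf and 0 to 3.31 in the other 5 leaf libraries, against 2.44 to 4.72 in flower. Leaf medians were thus below flower medians (0.49 against 2.76 TP5M), and its mean was under the 5 TP5M needed for a test. M3160-5p was called in flower against leaf (2.82 ± 0.61, adjusted p = 0.00298; means 92.8 ± 98.3 TP5M, n = 5, and 3.40 ± 4.82, n = 6), although the ranges overlapped; 21.2% of all sequences were called higher in flower. It was called under every other setting tried except the match by bracketed number, which turned its sign (−0.28). The 5p arms were a small part of the reads, 531 for M3160-5p and 83 for M3157-5p against 8309 for miR395d-g. They are a second reading of the same hairpins and not an independent sample of the plants.

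**Figure D3:**
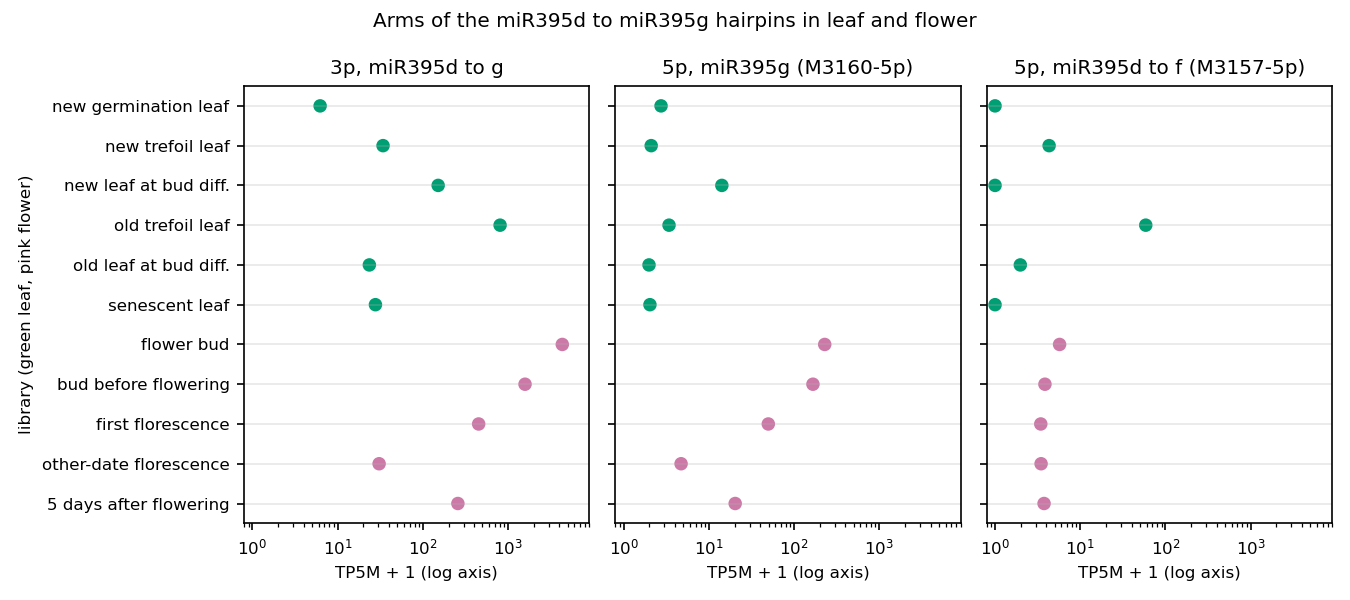
The shared main arm (left) and the 5p arms of miR395g (middle) and of miR395d to miR395f (right) in 6 leaf (green) and 5 flower (pink) libraries, as TP5M + 1 on a log axis, 1 point per library. M3160-5p is highest in the flower bud (227 TP5M), whereas M3157-5p is highest in the old trefoil leaf (57.7 TP5M).

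miR395a-c, made from hairpins on chromosomes 1, 2 and 8, had a different pattern, with its peak in the oldest seed. Seeds held 27.0 TP5M in week 6, 91.3 in week 8 and 1007 in week 10. Week 10 exceeded week 6 by 37.3-fold (95% interval 25.9 to 55.6) and week 8 by 11.0-fold (8.73 to 14.1). The next libraries were the old trefoil leaf (179 TP5M) and the germination cotyledon (176), followed by the trefoil cotyledon (99.1).

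In flower, where miR395d-g peaked, miR395a-c stayed between 16.0 and 41.4 TP5M, and its flower bud value was the lowest of the 5. Leaf ran from 35.3 through a median of 53.8 to 179 TP5M, and pods held 85.2, 33.7 and 69.7 in weeks 1 to 3. Stem held 40.6 and 68.2 TP5M, the leaf bud 13.8 and root 8.12, the lowest of all in TP5M. All listed sequences together took only 2.043% of the tags in root, so the summed signal there was low too. Outside the top libraries neighbouring organs overlapped. No contrast called it in limma: seed against pod was 1.19 ± 0.89 (adjusted p = 0.379) and seed against leaf 1.15 ± 0.77 (adjusted p = 0.309), with seed at 375 ± 548 TP5M (n = 3), an SD above the mean because of the week 10 library. By edgeR on the reads seed against leaf was called (2.36, adjusted p = 0.0357).

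Other miR395 reads fell 1 base from the annotated products. The entry M0260-3p overlaps miR395i, miR395j, miR395l and miR395m and begins 1 base later than the annotated miR395i-m. It held 3023 reads against 12, or 99.6% of the reads of both, and was the higher in all 23 libraries. M0009-3p, likewise displaced, overlaps miR395a, miR395b, miR395c and miR395k and held 999 reads, fewer than the 2255 of the annotated miR395a-c. miR395d-g, M0260-3p and M0009-3p are 3 products that share their first 19 bases, and so their seed. They differ in the last 2, shown in capitals.
miR395d-g: tgaagtgtttgggggaactTT
M0260-3p: tgaagtgtttgggggaactCT
M0009-3p: tgaagtgtttgggggaactCC
These related entries were also chosen after their values were seen.

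The 4 main products took turns as the leading one. miR395a-c led in 7 libraries, miR395d-g in 7, M0260-3p in 8 and M0009-3p in 1. In 5 libraries the lead was within counting error of the next product (new leaf at germination, pods of weeks 1 and 3, seed of week 8 and root), and beyond it the same products led in 4, 7, 6 and 1 libraries. In the flower bud miR395d-g made up 96.6% of the reads of the 4 (exact 95% interval 96.0 to 97.1), and in the bud before flowering 87.1% (85.5 to 88.6). miR395a-c made up 85.5% in the seed of week 10 (83.2 to 87.6) and 93.3% in the germination cotyledon (89.5 to 96.1).

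M0260-3p made up 60.2% in the old trefoil leaf (58.2 to 62.3) and 52.4% in the new (46.5 to 58.4). M0009-3p led only in the seed of week 6, with 71.3% (64.8 to 77.2), and stood at 139, 47.4 and 162 TP5M in seeds of weeks 6, 8 and 10. The leading product of the seeds was thus M0009-3p in week 6 and miR395a-c in week 10, with 1 library a week, and in week 8 miR395a-c led M0260-3p by 77 reads to 58, within counting error.

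**Figure D4:**
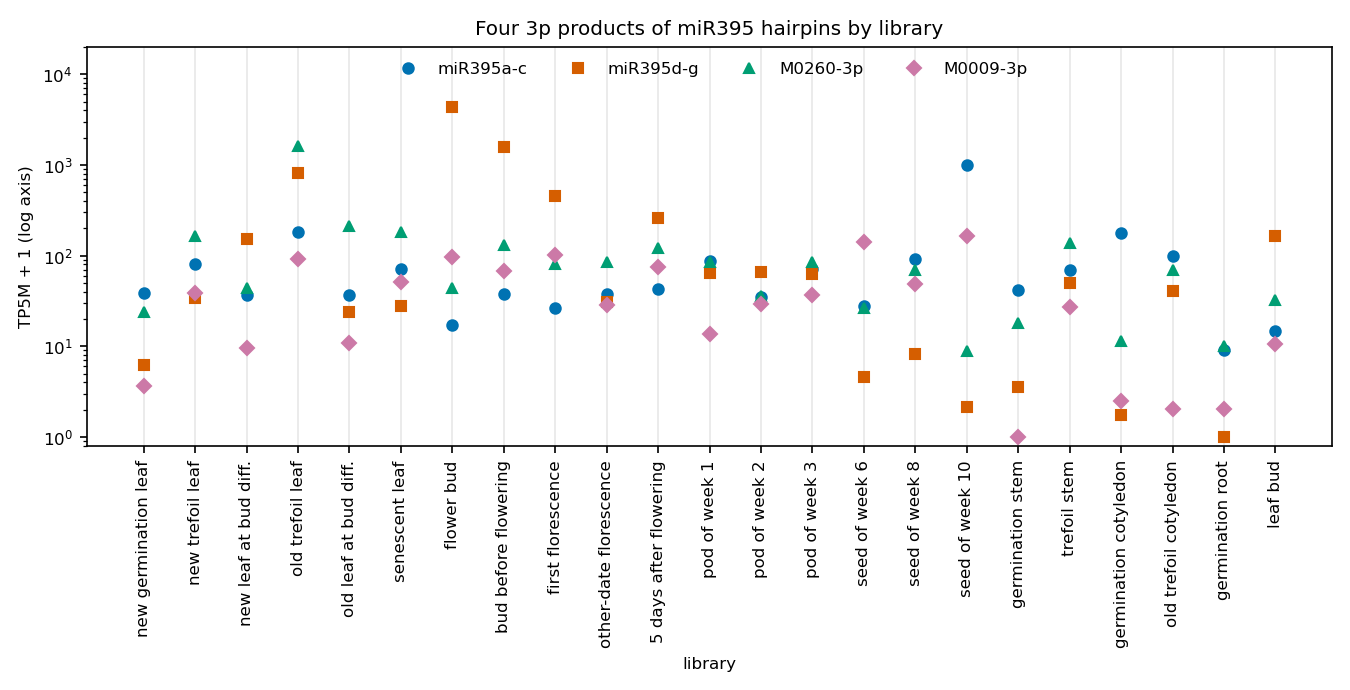
The 4 main miR395 products in each of the 23 libraries, as TP5M + 1 on a log axis. miR395d-g (squares) lies above the others in the flower bud and the bud before flowering, miR395a-c (circles) in the seed of week 10, and M0260-3p (triangles) in the old trefoil leaf (1628 TP5M).

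Of the 4 main miR395 products, M0260-3p was the one with all old leaf libraries above all new ones. It held 22.7, 166 and 43.4 TP5M in new leaf at germination, trefoil and bud differentiation, and 1628, 213 and 182 TP5M in old leaf at trefoil and bud differentiation and in senescent leaf. Such a separation was found for 24.2% of all sequences tested, including the lesser miR395 entries M0256-3p and M6833-3p. Within a stage, old leaf exceeded new 9.84-fold at trefoil (95% interval 8.31 to 11.7) and 4.91-fold at bud differentiation (3.64 to 6.71).

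The limma difference for old against new leaf was 2.73 and missed the threshold (adjusted p = 0.0623). None of the 5 tested members was called in old against new leaf by limma or edgeR, where limma called 14.5% of all sequences; none of the 5 had an unadjusted p under 0.05 (199 of all did). miR395d-g was 24.3-fold higher in old than in new leaf at trefoil (16.9 to 36.3) but lower at bud differentiation (ratio 0.15, 0.093 to 0.232). The old trefoil leaf was high for many of these sequences. It was grouped with 5 other libraries (3 pods and both leaf libraries at bud differentiation). These 6 together held 15 sequences that reached 20 TP5M and had 0 in every other library, none of them a member. How many of the 6 held each such sequence was not counted, nor was any other set of libraries. With a term for these 6 libraries none of the 5 was called in old against new leaf either.

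miR399 had its highest levels at the trefoil stage, when the young plant carries its first compound leaves. miR399d-g, from the paired hairpins, was higher at trefoil than at germination in each of the 3 organs sampled at both stages. New leaf held 30.5 TP5M at germination and 590.3 at trefoil, a 19.3-fold difference (95% interval 13.7 to 28.1). Stem held 51.6 and 333 TP5M (6.45-fold, 4.91 to 8.61) and cotyledon 21.5 and 508 (23.6-fold, 16.2 to 35.7).

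With the old trefoil leaf at 740.3 TP5M, the 4 trefoil libraries were the highest of all 23, the next being the leaf bud at 314 TP5M. The lowest of the 4, trefoil stem at 333 TP5M (95% interval 300 to 369), overlapped the leaf bud (275 to 358). Their order is thus within counting error. On the TP5M + 5 scale it was the single member at least 4-fold higher in all 3 organs, which held for 8 of all 595 sequences (1.34%). Having all 4 trefoil libraries above the other 19 held for 6 of the 595 (1.01%). The 3 organs were tested as pairs in limma with the organ as a block, a fit with 2 residual degrees of freedom, added after the values were seen. The difference was 3.64 ± 0.51 with an unadjusted p of 0.0032, and it did not pass over all sequences (adjusted p = 0.308). No sequence of the 595 did (0%; 54 had an unadjusted p under 0.05, 2 of them members). In the same design edgeR on the reads called 21 of 595, among them miR399d-g (3.85, adjusted p = 0.0431) and miR395d-g (3.95, adjusted p = 0.0301). With TMM scaling edgeR called 17, with miR399d-g (adjusted p = 0.0416) as the only member. All of this rests on the match of columns by title number: with the bracketed number the lowest of the 3 ratios was 0.15 in place of 5.97, and the paired difference −1.42.

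Of 8 tested entries linked to miR399 by older names, shared sequence or hairpin overlap, 3 were at least 4-fold higher at trefoil in all 3 organs on the TP5M + 5 scale. Among the 8 sequences at least 4-fold higher in all 3 organs were miR399d-g, M3024-3p, M2038-3p and M1876-3p, all of miR399, and M0260-3p of miR395; the 3 others were miR2119, a legume miRNA linked to copper supply, and M5469-3p and M0278-3p. Of the 6 with every trefoil library on top, 3 were of miR399. M3024-3p, whose older name is that of miR399i, held 0.87 TP5M in germination leaf and 199 in new trefoil leaf, 5.92 and 191 in stem, and 8.90 and 485 in cotyledon. M1876-3p held 8.72 and 116, 27.9 and 130.1, and 14.1 and 112 TP5M in the same order. The other 5 linked entries were not 4-fold higher throughout; in stem M3802-5p was lower at trefoil (65.5 against 122 TP5M) and M7802-3p held 44.6 against 44.0. No linked entry passed the paired limma test, with adjusted p = 0.308 for each of the 3. All these entries were read from the same libraries and are not separate evidence.

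miR399a/b/c/h was higher at trefoil in 2 of the 3 organs, with a paired limma difference of 1.29 ± 0.62 (adjusted p = 0.571). New leaf held 63.7 TP5M at germination and 207 at trefoil, and cotyledon 67.5 and 362, but stem 180.1 and 169, a ratio of 0.94 (95% interval 0.77 to 1.15). The 2 stem libraries were therefore level within counting error in this sequence, whereas germination stem was far below trefoil stem in miR399d-g. The old trefoil leaf was again the highest library, at 383 TP5M, with the trefoil cotyledon next to it.

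miR395d-g also had higher values at trefoil in the 3 organs (33.1 against 5.23 TP5M in leaf, 48.2 against 2.54 in stem, 40.0 against 0.74 in cotyledon), from 6, 3 and 1 reads at germination; the paired limma difference was 2.56 ± 0.41 (adjusted p = 0.308). miR395a-c was higher at trefoil in leaf (79.45 against 37.51 TP5M) and stem (68.2 against 40.6) but lower in cotyledon (99.1 against 176). Its paired limma difference was 0.29 ± 0.53 (adjusted p = 0.837). miR2111b/c/e/f was level in leaf (19.9 against 19.2), lower in stem (10.9 against 36.4) and higher within counting error in cotyledon (29.5 against 17.8, ratio 1.66, 0.93 to 2.99).

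**Figure D5:**
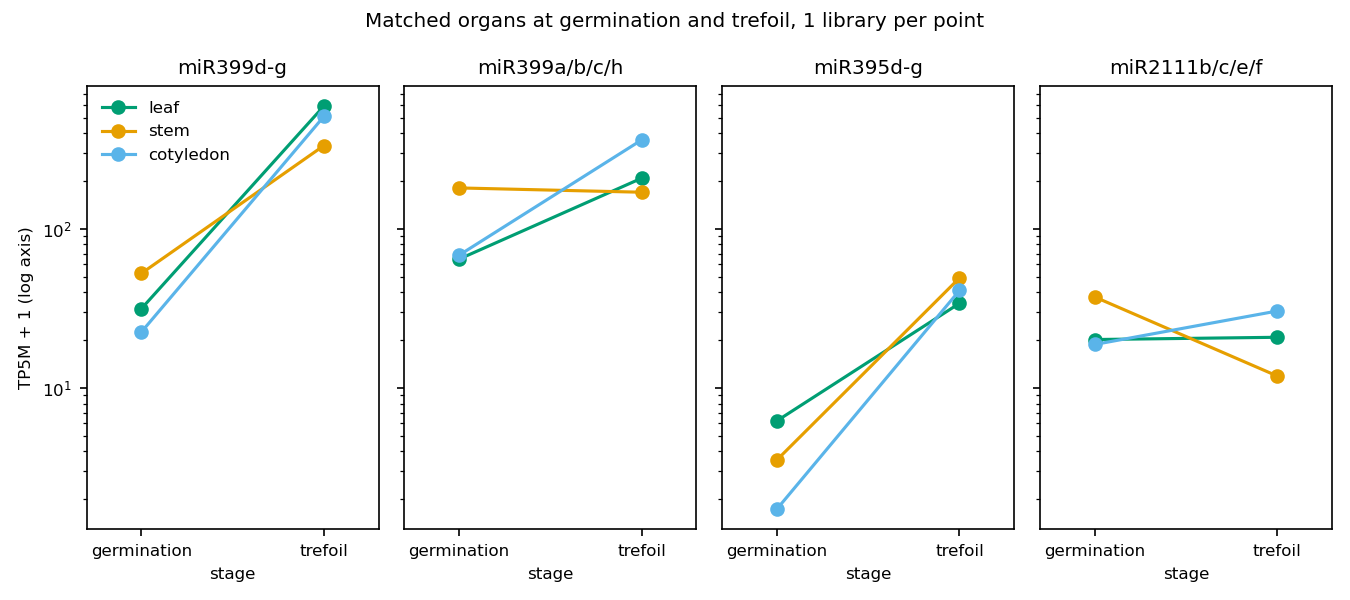
Levels at germination and at the trefoil stage of new leaf, stem and cotyledon, as TP5M + 1 on a log axis, 1 library per point. miR399d-g ends between 333 and 590.3 TP5M from starts between 21.5 and 51.6, whereas miR399a/b/c/h is level in stem.

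After the trefoil stage miR399 was lower in leaf. miR399d-g held 236 TP5M in new and 69.6 in old leaf at bud differentiation and 13.4 in senescent leaf, its lowest library of all. miR399a/b/c/h held 90.6, 79.4 and 19.6 TP5M in the same libraries. Flowers were in between, with miR399d-g at 222, 277, 172, 59.3 and 222 TP5M by stage, and pods at 120, 135 and 77.9 in weeks 1 to 3.

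Seeds were low in both miR399 sequences. miR399a/b/c/h held 10.8, 7.11 and 30.1 TP5M in weeks 6, 8 and 10, against pods at 138, 77.1 and 73.8 and leaf from 19.6 through a median of 85.0 to 383. All seeds were below all pods, and seed and pod did not overlap for 50.1% of all sequences tested (either organ higher). In limma miR399a/b/c/h was not called in seed against pod (−2.37, adjusted p = 0.0627). Its seeds overlapped leaf only through senescent leaf. It was called lower in seed than in leaf (−2.43 ± 0.73, adjusted p = 0.0288; 16.0 ± 12.4 TP5M, n = 3, against 141 ± 134, n = 6).

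Of the 5 tested sequences 2 were called lower in seed than in leaf, miR399a/b/c/h and miR2111b/c/e/f, where 9.58% of all sequences were. The median of the 5 was −1.97 and that of all sequences −0.38. The miR399a/b/c/h call was lost without the new trefoil leaf (adjusted p = 0.0507), the old trefoil leaf (0.0521), the seed of week 6 (0.11) or that of week 8 (0.153). Both calls were also lost with no filter on low values (adjusted p = 0.0557 each), with only the 2 organs in the fit (0.116 for miR399a/b/c/h and 0.131 for miR2111b/c/e/f) and with the term for 6 libraries (0.176 and 0.0918). miR399d-g held 39.6, 15.4 and 36.8 TP5M in the 3 seeds and was not called against leaf (−1.97, adjusted p = 0.218).

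miR399a/b/c/h had many reads on its 5p arm. M3802-5p, which overlaps miR399a and miR399c, held 1510 reads against 2561 of the main sequence shared by 4 hairpins. It made up 37.1% of the reads of both, which is not the arm ratio of any single hairpin. M3802-5p was the more abundant in 3 of 23 libraries. For miR399d-g the 5p entry M2039-5p, which overlaps miR399e and miR399g, held 122 reads against 4188 of the shared main sequence, or 2.83%. M2037-5p, which overlaps miR399d and miR399f, held 25 reads. M3802-5p was highest in the trefoil cotyledon (253 TP5M) and the old trefoil leaf (249.97), the top libraries of its main arm.

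By the highest over the median library, miR2111 had the narrowest range of the 3 families. At the low end miR2111b/c/e/f fell to 0 reads, in the seed of week 10. It was highest in the leaf bud (81.4 TP5M), the flower 5 days after flowering (80.05) and the new leaf at bud differentiation (69.7). Flowers held 35.9, 59.8, 56.0, 43.3 and 80.05 TP5M by stage and pods 54.0, 36.4 and 34.8 in weeks 1 to 3. Leaf ran from 9.61 (old trefoil leaf) through a median of 21.7 to 69.7 TP5M, and root, the organ in which its known legume target acts, held 12.2. As a share of the summed signal of all listed sequences, the miR2111 sum was 0.0129% in root, against 0.0027% to 0.0135% in leaf. The old trefoil leaf, among the top 3 libraries of miR395a-c, miR395d-g and both miR399 sequences, was thus the lowest leaf library for miR2111b/c/e/f. That value rests on 8 reads (95% interval 4.15 to 18.9 TP5M). The interval overlapped that of the next lowest, new leaf at germination (19.2 TP5M, 12.0 to 29.05). miR2111a/d had its highest leaf value in the old trefoil leaf, 4.81 TP5M from 4 reads.

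Seeds held 5.40, 11.9 and 0 TP5M in weeks 6, 8 and 10, and 3 reads in week 10 would have been 3.35 TP5M. All 3 were below all 3 pods, and seed and pod did not overlap for 50.1% of all sequences tested (either organ higher). The difference was called, as the single one of the 5 tested, at −2.26 ± 0.57 (adjusted p = 0.00904; 5.75 ± 5.94 TP5M against 41.7 ± 10.7, n = 3 each), where 12.3% of all sequences were called lower and the median of all was −0.64. Against leaf it was −1.67 ± 0.49 (adjusted p = 0.0275; leaf 29.8 ± 21.5 TP5M, n = 6).

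The week 10 seed decided much of this. Without it the difference from pod was no longer called (adjusted p = 0.0736), nor that from leaf (0.177), which was also lost without week 6 (0.0711). By edgeR with TMM scaling neither was called (adjusted p = 0.122 and 0.0811), nor with the term for 6 libraries (0.202 and 0.0918). Against leaf, flowers were higher by 0.94 (adjusted p = 0.108), which was called only when new leaf at bud differentiation was left out (adjusted p = 0.023).

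A sequence once named miR2111g, M0132-5p, was highest in senescent leaf. It held 92.7 TP5M there, against 0 to 13.7 in the other 5 leaf libraries, and 16.2, 45.1 and 2.23 in seeds of weeks 6, 8 and 10. M6833-3p, once named miR395s, was highest there too, with 167 TP5M, 32.7 in the trefoil cotyledon and at most 2.40 in the other leaf libraries. M6831-3p, once named miR395q, was lower at trefoil than at germination in the 3 organ pairs (11.0 against 59.3 TP5M in new leaf, 15.5 against 87.1 in stem and 14.8 against 36.3 in cotyledon) without passing the paired limma test (adjusted p = 0.451). Its highest library of all was nevertheless the old trefoil leaf, at 121 TP5M. These linked entries too were chosen after their values were seen, and none was called old against new.

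Among the 19 linked entries that could be tested, 1 was called in old against new leaf (14.5% of all sequences were), 1 lower in seed than in pod (12.3%), 1 lower in seed than in leaf (9.58%) and 2 higher in flower than in leaf (21.2%), each a smaller share than among all sequences. M0256-3p, of miR395, was called higher in old than in new leaf (1.95, adjusted p = 0.0463; 32.1 ± 33.6 against 2.24 ± 2.21 TP5M, n = 3 each). M0506-5p, of miR395, was called higher in flower than in leaf (1.51, adjusted p = 0.0283), M6832-3p, of miR395, lower in seed than in pod (−1.88, adjusted p = 0.0235) and M1876-3p, of miR399, lower in seed than in leaf (−2.42, adjusted p = 0.0436). Each of these 4 calls was lost under at least 1 other scaling, filter or tool.

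Named sequences of other families with the most similar profile were listed by Spearman's rho over the 23 libraries, as a description. For the miR395 sum they were miR171e (0.567), miR167a (0.539) and miR4392 (0.505). For the miR399 sum they were miR166p (0.813), miR395d-g (0.694) and miR2119 (0.671), and for the miR2111 sum miR319n (0.897), miR159d (0.799) and miR166a (0.798). The points share depth and library preparation.

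Other nutrient families were counted for comparison; over all sequences 24.9% were called in flower against leaf, 2.02% in pod against flower, 16.3% in seed against pod, 16.3% in seed against leaf and 14.5% in old against new leaf. Of 19 tested sequences of miR169 and miR393, linked to nitrogen and phosphate, 2 were called higher and 1 lower in flower than in leaf, 1 lower in seed than in pod, 1 higher and 2 lower in seed than in leaf, 1 lower in old than in new leaf and none in pod against flower; miR827 had no sequence in the table. Of 9 copper-linked sequences (miR397, miR398, miR408, miR2119), 1 was called higher and 1 lower in seed than in pod, 1 lower in seed than in leaf and 1 higher in old than in new leaf, and none in the other contrasts. Their median was 1.53 in old against new leaf (0.06 for all sequences), −1.53 in flower against leaf (0.44) and −1.85 in seed against leaf (−0.38). For miR169 and miR393 these medians were −0.63, 1.10 and 0.07. Families counted as reported in phloem sap were miR156, miR159, miR162, miR167, miR168, miR169, miR390, miR397, miR398 and miR408. They share miR169, miR397, miR398 and miR408 with the lists above. Of their 48 tested sequences, 5 were called higher and 2 lower in seed than in pod. In seed against leaf 2 were higher and 4 lower. In flower against leaf 3 were higher and 4 lower, and in old against new leaf 6 higher and 1 lower. Their part in the miR399 and miR2111 differences was not tested.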

How the data were processed

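The authors deposited 1 table of a normalised signal per mature sequence and library, scaled to tags per 5000000 (TP5M), per the file headers. The submitters' processing notes list BWA, while its role and version and the genome build are not given in the sources available. Table columns were matched to libraries by the number in each title. The titles hold another number in brackets, tried as an alternative. All value columns were matched (0 unused). Entries of identical sequence were merged by maximum. Of 27 hairpin names, 26 matched a RefSeq gene name.

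The step between low values gave the worth of 1 read: 100.0% of 41149 values of up to 200 reads were whole within 0.1. Totals ran from 3.625 to 6.743 (in units of 1e6) tags. log2(TP5M + 5) was fitted in limma 3.58.1 (R 4.3.3) with a mean per organ over 23 libraries, eBayes with trend, for sequences averaging 5 TP5M or more, Benjamini-Hochberg adjusted at 0.05. This scale understates changes of low sequences. Stages stand in for replicates, so SDs and p-values do not measure biological replication. Alternatives were a pseudocount of 1, no filter or a mean of 20 TP5M, and TMM scaling. Others were edgeR 4.0.16 quasi-likelihood on the recovered reads, only the organs compared and each library left out. A term for 6 libraries, with sequences found only among them, was added after seeing the data. A fit of trefoil against germination with the organ as a block (3 pairs) was also added then. The limma fits were tested on simulated data. Poisson (ratio) and Clopper-Pearson intervals are exact, at 95%, and cover counting error only (pandas 2.3.3, scipy 1.17.1).

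Named sequences are the members with a mean of 5 TP5M, the others by range, and the 3 most similar named sequences per family sum. Linked entries share 18 nt with a member, carry an older name of the family or overlap a member's hairpin. Those named, 42 being linked in all, were chosen after their values were seen. Members, lists and tests were chosen with earlier results of these data known.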

Additional observations from a re-analysis of the deposited data

Results flagged for a closer look

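Single libraries far from the others of their organ were found in 11 of 48 groups, over 24 sequences in leaf and flower. The limit used is passed by about 1 in 20 groups of independent normal replicates. The groups here are stages on the TP5M scale and share libraries, so that rate does not apply to them. The old trefoil leaf was the far library in 6 of them: miR395a-c (179.07 TP5M, next 79.45), miR395d-g (805.19, next 150.24), M0260-3p (1628.41, next 212.82), M6832-3p (13.22, next 2.21), M0256-3p (69.7, next 21.62) and M3802-5p (249.97, next 60.69). Senescent leaf was the far library in 3: M0132-5p (92.65 TP5M), M6833-3p (166.77) and M0258-3p (45.3, with the other leaf libraries at 0). The others were M3160-5p in new leaf at bud differentiation (13.17 TP5M) and M6832-3p in the flower bud (29.25).

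Old over new leaf went opposite ways at the 2 stages for miR395d-g, with a ratio of 24.33 at trefoil and 0.1502 at bud differentiation, and for miR399d-g, with 1.254 and 0.2948. Each ratio compares 1 library with 1 library, and the difference between stages was not tested.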

How the results depend on the processing

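Replicate numbers within an organ only name its stages and pair no samples. Pairing by organ, trefoil against germination with the organ as a replicate block called 0 members in limma, 0 without the block, 2 by edgeR and 1 by edgeR with TMM, and 0 with any organ left out. Matched by the bracketed title number, 0 of the tested members differed among organs (2 with the title number), 0 were called in seed against pod and 0 in seed against leaf. The signs of miR2111b/c/e/f turned there, to 1.44 against pod and 0.80 against leaf, as did those of M3160-5p (−0.28) and M0506-5p (−0.10) in flower against leaf, M6832-3p in seed against pod (0.93) and M0256-3p in old against new leaf (−0.30), and the lowest trefoil over germination ratio of miR399d-g became 0.1455; the cause was not tested. In seed against pod (1 called) a pseudocount of 1 gave 2, the fit of only the organs compared 4 and the term for 6 libraries 0. The term covers every pod and no seed, so it cannot check that contrast. In seed against leaf (2 called) no filter gave 0, edgeR 4, only the organs compared 0 and the term 0. In flower against leaf (0 called) the term gave 1. Leaving out 1 library gave 2 to 3 among organs, 0 to 2 in flower against leaf, 0 in pod against flower, 0 to 1 in seed against pod, 0 to 2 in seed against leaf and 0 in old against new leaf. The highest over the median library of miR395 (33.14) became 38.18 merged by sum, 35.55 as a share of the summed signal, 16.53 with sequences sharing 18 nt and 13.35 with every linked sequence, always with the flower bud highest. For miR399 (4.851) it became 5.546 as a share of the signal, where the new trefoil leaf was highest, and 5.613 with every linked sequence. For miR2111 (2.43) it ran from 2.364 to 2.68, within counting error, but the highest library became the leaf bud as a share of the signal and senescent leaf with linked sequences. TMM scaling moved the median of all sequences from 0.44 to 0 in flower against leaf, from −0.17 to −0.01 in pod against flower, from −0.64 to −0.16 in seed against pod and from −0.38 to −0.20 in seed against leaf. Sequences under 5 TP5M, and levels near 3 reads, could not be compared at this depth.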
